A study of Mus musculus with 7 samples.

Results

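The genes described here are 10 members of the transforming growth factor beta (TGF-beta) system: the ligands Tgfb1, Tgfb2 and Tgfb3, the receptors Tgfbr1, Tgfbr2 and Tgfbr3, the latency proteins Ltbp1 and Ltbp2, the TGF-beta-induced matrix protein Tgfbi and the inhibitory factor Smad7. They were chosen by gene symbol, and all 10 were found among the 15415 genes of the deposited table. RNA was sequenced from bulk Lgr5-positive cells of mouse back skin in 3 Telogen samples (the resting phase of the hair cycle, age 45 days) and 4 Anagen samples (the growth phase, age 35 days). All mice were of the same C57Bl6 x B10D2 background, and all had their fur removed before the epidermis was taken. Lgr5, a stem cell gene of the hair follicle, was read through GFP, and the gate kept cells that were negative for CD45, a leukocyte marker, and for the dead-cell dye DAPI. The labels do not name the GFP allele, nor do they state if each sample held 1 mouse or several. The p-values therefore reflect variation among these libraries, part of which may be technical. Age and hair cycle phase go together and cannot be told apart. The series concerns quiescent stem cells and immune surveillance, and the comparison sets resting against growing follicles.

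TGF-beta ligands are secreted as inactive complexes in which the latency-associated peptide wraps the growth factor. Latent TGF-beta binding proteins (LTBPs) tether these complexes to the matrix, and integrins, chiefly those with the alpha-v chain, can free the ligand from them. The free ligand is bound by the type II receptor (Tgfbr2), which phosphorylates the type I receptor (Tgfbr1), and this kinase activates SMAD2 and SMAD3. Betaglycan (Tgfbr3) is a coreceptor that presents ligand, above all TGF-beta2, and its shed form can sequester it. In mouse skin, TGF-beta2 from the dermal papilla is known to act on stem cells of the hair germ at the start of growth, and TGF-beta1 is known for a role in the end of the growth phase.

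Total counts were 5097457 to 6453337 in Telogen and 13719893 to 17042690 in Anagen, so depth also went with phase. A count of 3 corresponded to between 0.176 and 0.589 CPM (counts relative to the scaled size of the library). Lgr5 itself was detected in every library, at 460.7 ± 13.7 CPM in Telogen (SD, n = 3) and 56.2 ± 30.6 CPM in Anagen (SD, n = 4). Markers of hair follicle stem cells and basal keratinocytes were present for 11 of 11 genes and summed to 19030 to 27118 CPM in Telogen and 24236 to 29188 CPM in Anagen. These like sums hide opposite moves of single markers. By the test given below, 6 fell and 4 rose, against 23.7% and 25.8% of all genes tested. In group means, Krt15 went from 8636 to 171 CPM and Cd34 from 511 to 12.7 CPM. Krt14 went from 831 to 5693 CPM and Krt5 from 9115 to 17000 CPM. Libraries of Anagen 1 and Anagen 2 stood apart in 11 markers of dermal fibroblasts, which summed to 1089 and 1533 CPM there, against 85.5 and 110.4 CPM in Anagen 3 and Anagen 4 and 84.0 to 108.7 CPM in Telogen. Of these 11 markers, 4 (Col6a3, Dcn, Lum and Pdgfrb) were at 0 in all Telogen libraries. The sums hide opposite moves: Fbln1 went from 44.0 to 59.8 CPM in Telogen to 0.643 to 2.88 CPM in Anagen, while Dcn was at 20.6 and 20.3 CPM and Col3a1 at 19.1 and 20.4 CPM in Anagen 3 and Anagen 4, with Col3a1 at 0.320 to 0.594 CPM in Telogen. Without Anagen 1 and Anagen 2, 7 of the 11 markers were tested. Col1a1, Col3a1, Dcn and Lum still passed as rises and Fbln1 as a fall. Col1a2 and Thy1 did not pass, at log2 fold changes of -0.19 and -0.34. All 4 Anagen libraries thus held more RNA of Col1a1, Col3a1, Dcn and Lum than Telogen, which does not hold for the whole list. Markers of Schwann cells (5 of 5 present) summed to 12.1 to 19.8 CPM in Telogen and 72.3 to 92.1 CPM in Anagen. Leukocyte markers (11 of 12 present) summed to 6.23 to 28.1 CPM in Telogen, highest in Telogen 3, and 1.71 to 2.64 CPM in Anagen. In bulk RNA of this kind, fewer cells of a type and less RNA per cell cannot be told apart.

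The members moved in both directions. Between Telogen and Anagen, 2 of the 10 rose (Tgfb1 and Tgfbr3), 5 fell (Tgfbr2, Ltbp1, Ltbp2, Tgfbi and Smad7) and 3 did not pass the test (Tgfb2, Tgfb3 and Tgfbr1). The test was edgeR's quasi-likelihood test with Benjamini-Hochberg adjustment over all 12266 genes tested and a threshold of 0.05. Of all genes tested, 49.5% passed it, 25.8% upward and 23.7% downward, and these shares are the background for every count below from this fit. Fits with libraries left out have other backgrounds. Without Anagen 1, 2650 genes rose and 2526 fell of 11773 tested. Without Anagen 1 and Anagen 2, 2118 genes rose and 2206 fell of 11673 tested. The values of 7 members did not overlap between the groups, which was also so for 54.5% of all genes. The median log2 fold change (Anagen minus Telogen) was -1.71 over the 10 members and 0.09 over all genes tested. Summed over the members, the level was 1483, 1339 and 1212 CPM in the 3 Telogen libraries and 272, 309, 263 and 292 CPM in the 4 Anagen libraries. Tgfbi and Smad7, with means of 630.1 and 312 CPM in Telogen, made up most of each Telogen sum.

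**Figure D1:**
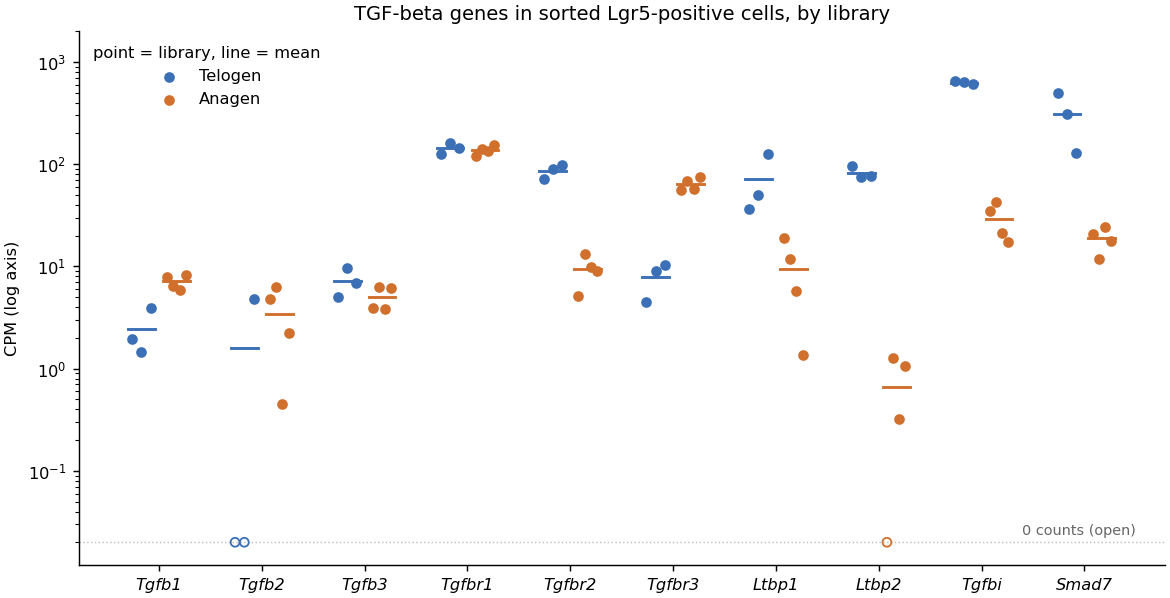
Level of each of the 10 members in every library, in CPM on a log axis, with a point for each of the 3 Telogen and 4 Anagen samples, a line at each group mean and open points for 0 counts. Tgfbi and Smad7 are high in Telogen and low in Anagen, Tgfbr3 goes the other way, and the points of Tgfbr1 overlap.

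The promoters of 4 members whose levels changed are shown here: Ltbp2, Tgfbi and Tgfbr2, which fell, and Tgfb1, which rose. Promoter sequence was at hand for 7 of the 10 members, without Tgfb3, Tgfbr3 and Smad7. Of these 7, Ltbp1, which also fell, and Tgfb2 and Tgfbr1, which did not pass the test, are not shown and were not searched. The 4 windows therefore give no comparison of members that rose with members that fell. Each window holds the 180 bases before the earliest annotated start of the gene, 5′ to 3′ on the gene's strand, from RefSeq (GRCm38.p6, the mm10 build). The capitals mark CAGAC or its reverse complement GTCTG, which hold the core that SMAD3 and SMAD4 are known to bind. The shorter AGAC or GTCT was neither marked nor counted, and it occurs outside the capitals in the Ltbp2 and Tgfb1 windows.
Ltbp2 (chr12:84876533-84876712, minus strand): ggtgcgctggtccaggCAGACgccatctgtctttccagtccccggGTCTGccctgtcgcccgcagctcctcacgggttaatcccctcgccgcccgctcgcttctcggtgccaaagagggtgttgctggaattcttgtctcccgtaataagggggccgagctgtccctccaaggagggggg
Tgfbi (chr13:56609343-56609522, plus strand): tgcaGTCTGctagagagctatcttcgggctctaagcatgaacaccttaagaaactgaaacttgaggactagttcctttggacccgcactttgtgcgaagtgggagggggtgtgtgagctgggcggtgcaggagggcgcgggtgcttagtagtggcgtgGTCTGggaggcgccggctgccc
Tgfbr2 (chr9:116175364-116175543, minus strand): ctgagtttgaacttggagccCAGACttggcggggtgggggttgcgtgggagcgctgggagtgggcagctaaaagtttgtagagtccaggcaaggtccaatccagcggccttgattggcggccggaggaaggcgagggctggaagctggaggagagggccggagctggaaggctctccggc
Tgfb1 (chr7:25686822-25687001, plus strand): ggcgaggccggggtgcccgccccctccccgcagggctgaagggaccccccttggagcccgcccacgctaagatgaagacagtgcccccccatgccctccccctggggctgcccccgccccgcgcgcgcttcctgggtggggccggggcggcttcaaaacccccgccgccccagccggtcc

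CAGAC, searched on both strands, was found 2 times in the Ltbp2 window, 2 times in the Tgfbi window, 1 time in the Tgfbr2 window and 0 times in the Tgfb1 window. Of 32851 mouse promoter windows of the same length, 32.6% held at least 1 match and 6.71% held at least 2. The Tgfb1 window held GGCGGG, the core of GC boxes, 4 times on either strand, and 2.65% of all windows held it at least 4 times. The Tgfbr2 window held GGCGGG 1 time, and 29.8% of all windows held it at least 1 time. TGANTCA, the AP-1 motif, and TATAAA, the TATA box, were found 0 times in all 4 windows, and 4.97% and 8.94% of all windows held at least 1. No factor binding was measured in these samples, so a match is a description of the letters.

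Ligand RNA was low throughout and shifted towards Tgfb1. Tgfb1 (NM_011577, chromosome 7, 25687002 to 25705077, mm10) stood at 1.96, 1.44 and 3.96 CPM in Telogen and at 7.92, 6.45, 5.86 and 8.29 CPM in Anagen. The Telogen values rest on 11, 9 and 20 counts. Each Anagen value was above each Telogen value. The means were 2.45 ± 1.33 CPM (SD, n = 3) and 7.13 ± 1.16 CPM (SD, n = 4), a 2.92-fold rise (log2 fold change 1.55 ± 0.50 SE, edgeR adjusted p = 0.0245). This was the weakest of the calls: it was lost without Telogen 1, Telogen 2, Anagen 1 or Anagen 4, with adjusted p up to 0.0643. It was also lost without Anagen 1 and Anagen 2 together (adjusted p = 0.122), at nearly the same log2 fold change of 1.53.

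Tgfb2 (NM_009367, chromosome 1, 186623186 to 186705992) was carried by single libraries. It had 0, 0 and 24 counts in Telogen and 66, 113, 7 and 31 counts in Anagen, or 0, 0 and 4.76 CPM against 4.75, 6.23, 0.451 and 2.22 CPM. All Telogen reads lay in Telogen 3, and the highest Anagen values lay in Anagen 1 and Anagen 2, the libraries highest in fibroblast markers. The means were 1.59 ± 2.75 CPM (SD, n = 3) and 3.41 ± 2.58 CPM (SD, n = 4). The log2 fold change of 1.14 ± 1.33 SE did not pass the test (edgeR adjusted p = 0.504, 95% interval -1.80 to 4.07). Without Telogen 3 the gene had 0 Telogen against 217 Anagen counts, at least 13.95-fold higher in Anagen and past the test (adjusted p = 0.0136). The floor for this bound is 3 counts over the summed Telogen library sizes and covers counting error only. Without Anagen 1 and Anagen 2 the log2 fold change was -0.22 (adjusted p = 0.932). The part of other cell types in these values was not tested. Of 8 dermal papilla markers, 3 were present, and they summed to 1.25 to 2.88 CPM in Telogen and 1.71 to 9.40 CPM in Anagen.

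Tgfb3 (NM_009368, chromosome 12, 86056743 to 86079041) stood at 4.99, 9.75 and 6.94 CPM in Telogen and 3.89, 6.34, 3.80 and 6.15 CPM in Anagen. The means were 7.22 ± 2.40 CPM (SD, n = 3) and 5.04 ± 1.39 CPM (SD, n = 4), and the ranges overlapped. Its log2 fold change of -0.52 ± 0.43 SE did not pass the test (edgeR adjusted p = 0.342, 95% interval -1.47 to 0.43). Genes on the opposite strand overlap exons of Tgfb2 (1 gene) and Tgfb3 (2 genes) in the GENCODE annotation, and the treatment of strand in the counts is not given in the sources used here.

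Levels of different genes were compared per length, in the RPKM the authors deposited. On that scale the 3 ligands summed to 3.48 ± 1.31 RPKM in Telogen and 5.64 ± 1.11 RPKM in Anagen (SD, n = 3 and 4), and the ranges overlapped. Tgfb1 made up 18.7% to 37.9% of this sum in Telogen and 48.1% to 68.8% in Anagen. The Tgfb3 share went from 42.0% to 81.3% in Telogen to 19.8% to 30.4% in Anagen. Both shares therefore separated the groups, although the level of Tgfb3 did not. These shares are descriptions and were not tested.

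**Figure D2:**
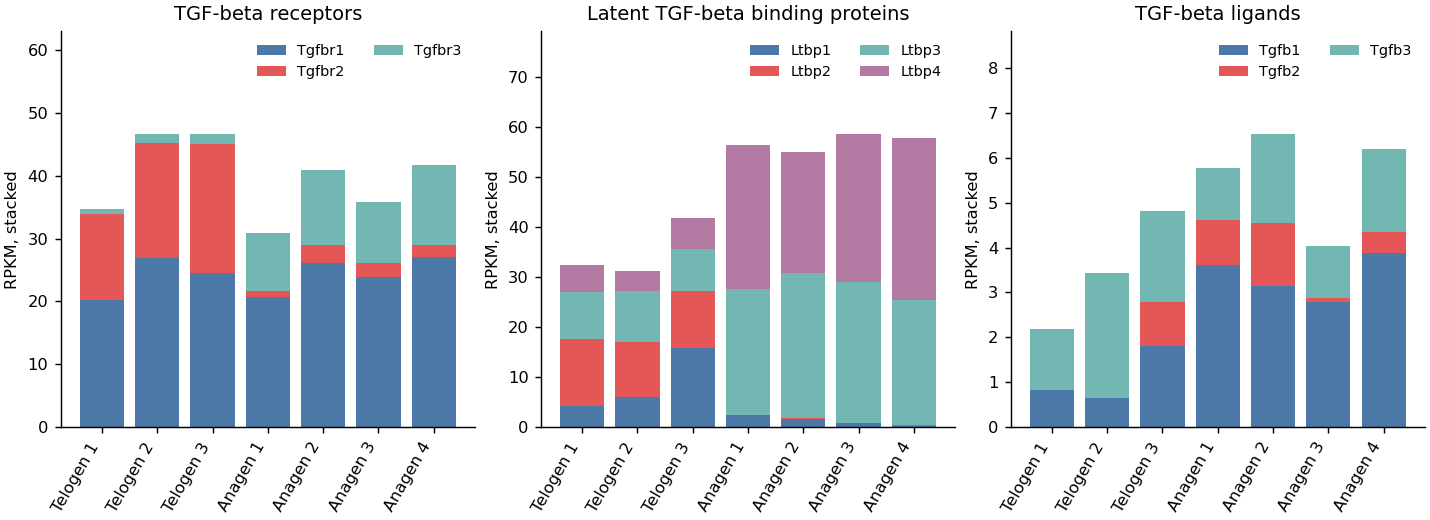
RPKM of the 3 receptors, the 4 latent TGF-beta binding proteins and the 3 ligands, stacked for each of the 7 libraries. Tgfbr2 is small and Tgfbr3 large in every Anagen library, Ltbp3 and Ltbp4 make up nearly all of the Anagen LTBP bars, and Tgfb1 is the largest ligand in each Anagen bar.

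Among the receptors, the signalling type II receptor and the coreceptor moved in opposite directions and the type I receptor stayed within its spread. Tgfbr2 (NM_009371, chromosome 9, 116087695 to 116175363) stood at 71.2, 90.2 and 98.9 CPM in Telogen and at 5.19, 13.3, 9.92 and 9.08 CPM in Anagen. The lowest Telogen value was far above the highest Anagen value. The means were 86.7 ± 14.1 CPM (SD, n = 3) and 9.38 ± 3.35 CPM (SD, n = 4), 9.22-fold lower in Anagen (log2 fold change -3.20 ± 0.32 SE, edgeR adjusted p = 2.32e-05). Among all listed genes Tgfbr2 went from the 77.5 to the 39.4 percentile of mean RPKM.

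Tgfbr3 (NM_011578, chromosome 5, 107106570 to 107289595) stood at 4.45, 9.11 and 10.3 CPM in Telogen and at 56.2, 68.0, 57.3 and 75.6 CPM in Anagen. It was high in all 4 Anagen libraries. The means were 7.96 ± 3.09 CPM (SD, n = 3) and 64.3 ± 9.25 CPM (SD, n = 4), 8.08-fold higher in Anagen (log2 fold change 3.01 ± 0.33 SE, edgeR adjusted p = 4.31e-05). Without Anagen 1 and Anagen 2 the log2 fold change was 3.06. GENCODE lists Gm43422 on the same strand over exons of Tgfbr3, so reads of the overlap cannot be assigned to either gene.

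Tgfbr1 (NM_009370, chromosome 4, 47353222 to 47414924) stood at 126, 160 and 143 CPM in Telogen and 119, 141, 133 and 153 CPM in Anagen. The means were 143 ± 17.1 CPM (SD, n = 3) and 137 ± 14.1 CPM (SD, n = 4), and the ranges overlapped almost fully. The log2 fold change was -0.07 ± 0.18 SE (edgeR adjusted p = 0.781), and its 95% interval of -0.47 to 0.34 sets the size of a difference that these samples could still hold. The sign turned with the scaling, to 0.02 with upper-quartile factors.

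Per length, the summed receptor level was 42.7 ± 6.94 RPKM in Telogen and 37.4 ± 5.01 RPKM in Anagen (SD, n = 3 and 4), with overlapping ranges. Within this sum, Tgfbr2 went from 40.8% ± 2.55 in Telogen to 5.33% ± 1.62 in Anagen. Tgfbr3 went from 2.89% ± 0.844 to 29.2% ± 1.39, and Tgfbr1 from 56.3% ± 3.16 to 65.5% ± 1.502. The ratio of Tgfbr1 to Tgfbr2 in RPKM was 1.39 ± 0.157 in Telogen and 13.3 ± 4.44 in Anagen. It lay between 1.21 and 1.48 in the Telogen libraries and between 8.81 and 19.1 in the Anagen libraries. The ratio of Tgfbr3 to Tgfbr2 went from 0.0705 ± 0.0184 to 5.93 ± 2.07 (SD, n = 3 and 4).

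The 3 genes whose centred profile over the 7 samples lay nearest to that of Tgfbr3, the member with the largest rise past the test, were Endod1, Tbc1d1 and Dgkz. Their root mean square differences from it in log2 CPM were 0.115, 0.139 and 0.168, among 11743 genes compared. For Ltbp2, the member with the largest fall, the nearest were Tspan8 (0.511), Serpinb11 (0.761) and Fam13a (0.780). The samples fall into the 2 groups, so any gene with a like difference between the groups counts as near.

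Both latency proteins among the members fell. Ltbp2 (NM_013589, chromosome 12, 84783212 to 84876495), a matrix protein of the LTBP family that does not itself bind the latent complex, had 540, 467 and 383 counts in Telogen and 0, 23, 5 and 15 counts in Anagen. These are 96.2, 74.6 and 75.9 CPM against 0, 1.27, 0.322 and 1.07 CPM. No Anagen library came near a Telogen library, and Anagen 1 had no read at all. The means were 82.2 ± 12.1 CPM (SD, n = 3) and 0.666 ± 0.603 CPM (SD, n = 4), a fitted 118.9-fold lower level in Anagen (log2 fold change -6.89 ± 0.67 SE, edgeR adjusted p = 1.70e-05). The log2 fold change was -7.82 with offsets for GC content and length. One gene on the opposite strand, D030025P21Rik, overlaps its exons.

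Ltbp1 (NM_019919, chromosome 17, 75005529 to 75392967), which binds the latent complex covalently, was the most variable of the members that fell. It stood at 36.9, 49.7 and 126.6 CPM in Telogen and at 19.02, 11.9, 5.80 and 1.36 CPM in Anagen. Telogen 3 was the highest of the Telogen libraries. Anagen 1 and Anagen 2, which were highest in fibroblast markers and, among Anagen libraries, in Lgr5, were the highest of the Anagen libraries. The groups did not overlap, and the level was 7.46-fold lower in Anagen (71.1 ± 48.5 against 9.51 ± 7.66 CPM, SD, n = 3 and 4; log2 fold change -2.90 ± 0.69 SE, edgeR adjusted p = 0.00554). Its log2 fold change was -2.18 without Telogen 3 and -4.30 without Anagen 1 and Anagen 2. With offsets for GC content and length it was -3.58.

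The other LTBPs went the other way. Ltbp3, which also binds latent TGF-beta, stood at 53.1, 55.1 and 44.6 CPM in Telogen and at 131.4, 141.8, 142.0 and 128.2 CPM in Anagen. All Anagen values were above all Telogen values, and the level was 2.67-fold higher (log2 fold change 1.41 ± 0.19 SE, edgeR adjusted p = 0.000160). Ltbp4, which binds chiefly the TGF-beta1 complex, stood at 31.0, 21.6 and 33.5 CPM in Telogen and at 154.4, 121.7, 152.9 and 169.4 CPM in Anagen, a 5.22-fold rise (log2 fold change 2.38 ± 0.24 SE, edgeR adjusted p = 2.23e-05). With offsets for GC content and length both stayed past the test, at log2 fold changes of 0.57 and 1.53.

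Per length, the 4 LTBPs summed to 35.1 ± 5.80 RPKM in Telogen and 56.9 ± 1.59 RPKM in Anagen (SD, n = 3 and 4). Ltbp1 and Ltbp2 together made up 54.5% to 64.9% of this sum in Telogen and 0.587% to 4.24% in Anagen. Ltbp4 went from 14.7% ± 1.98 to 50.5% ± 4.89 and Ltbp3 from 27.4% ± 6.48 to 47.1% ± 4.15. The summed level of the family was higher in each Anagen library than in any Telogen library (55.0 to 58.6 against 31.1 to 41.8 RPKM). These RPKM carry no offsets for GC content and length. With such offsets the rises of Ltbp3 and Ltbp4 were 1.48-fold and 2.89-fold, in place of 2.67-fold and 5.22-fold. The sum was not computed with them, so its rise may depend on this setting.

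Tgfbi and Smad7, with 225 and 66.6 RPKM the highest members per length in Telogen, both fell. Tgfbi (NM_009369, chromosome 13, 56609603 to 56639339) encodes a secreted protein that was named for its induction by TGF-beta and that binds collagens and integrins. It stood at 647, 630.4 and 612 CPM in Telogen and at 34.6, 42.3, 21.3 and 17.3 CPM in Anagen. The Telogen libraries lay close together, and the 2 highest Anagen values were again those of Anagen 1 and Anagen 2. The means were 630.1 ± 17.5 CPM (SD, n = 3) and 28.9 ± 11.6 CPM (SD, n = 4), 21.8-fold lower in Anagen (log2 fold change -4.45 ± 0.31 SE, edgeR adjusted p = 2.04e-06). The log2 fold change was -5.03 without Anagen 1 and Anagen 2. In RPKM the gene went from 225 to 11.1, from the 97.8 to the 69.2 percentile of all listed genes.

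Smad7 (NM_001042660, chromosome 18, 75367365 to 75395934), which is induced by TGF-beta and blocks the type I receptor in a negative feedback loop, stood at 494, 313 and 129 CPM in Telogen and at 20.9, 11.9, 24.5 and 17.9 CPM in Anagen. The Telogen values spread widely, with Telogen 3 the lowest, but each was above each Anagen value. The means were 312 ± 182 CPM (SD, n = 3) and 18.8 ± 5.34 CPM (SD, n = 4), 16.6-fold lower in Anagen (log2 fold change -4.05 ± 0.42 SE, edgeR adjusted p = 2.67e-05). With offsets for GC content and length the log2 fold change was -4.75.

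An exact permutation test over samples does not draw on the spread of other genes. With 3 against 4 samples there are 35 splits, and the smallest two-sided p it can give is 0.0286. Of the members, 6 had that smallest p (Tgfb1, Tgfbr2, Tgfbr3, Ltbp2, Tgfbi and Smad7). The share of all genes with that p was not computed. The groups did not overlap for 54.5% of all genes tested, so a p at or near the smallest is common here. The exact permutation p was 0.0571 for Ltbp1, 0.2 for Tgfb3, 0.229 for Tgfb2 and 0.629 for Tgfbr1.

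Of 65 other genes of the pathway, 60 were in the table and 53 were tested, of which 20 rose and 14 fell. Without Anagen 1, 13 rose, and without Anagen 1 and Anagen 2, 12 rose and 13 fell of 51 tested. The lists below share some genes.

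**Figure D3:**
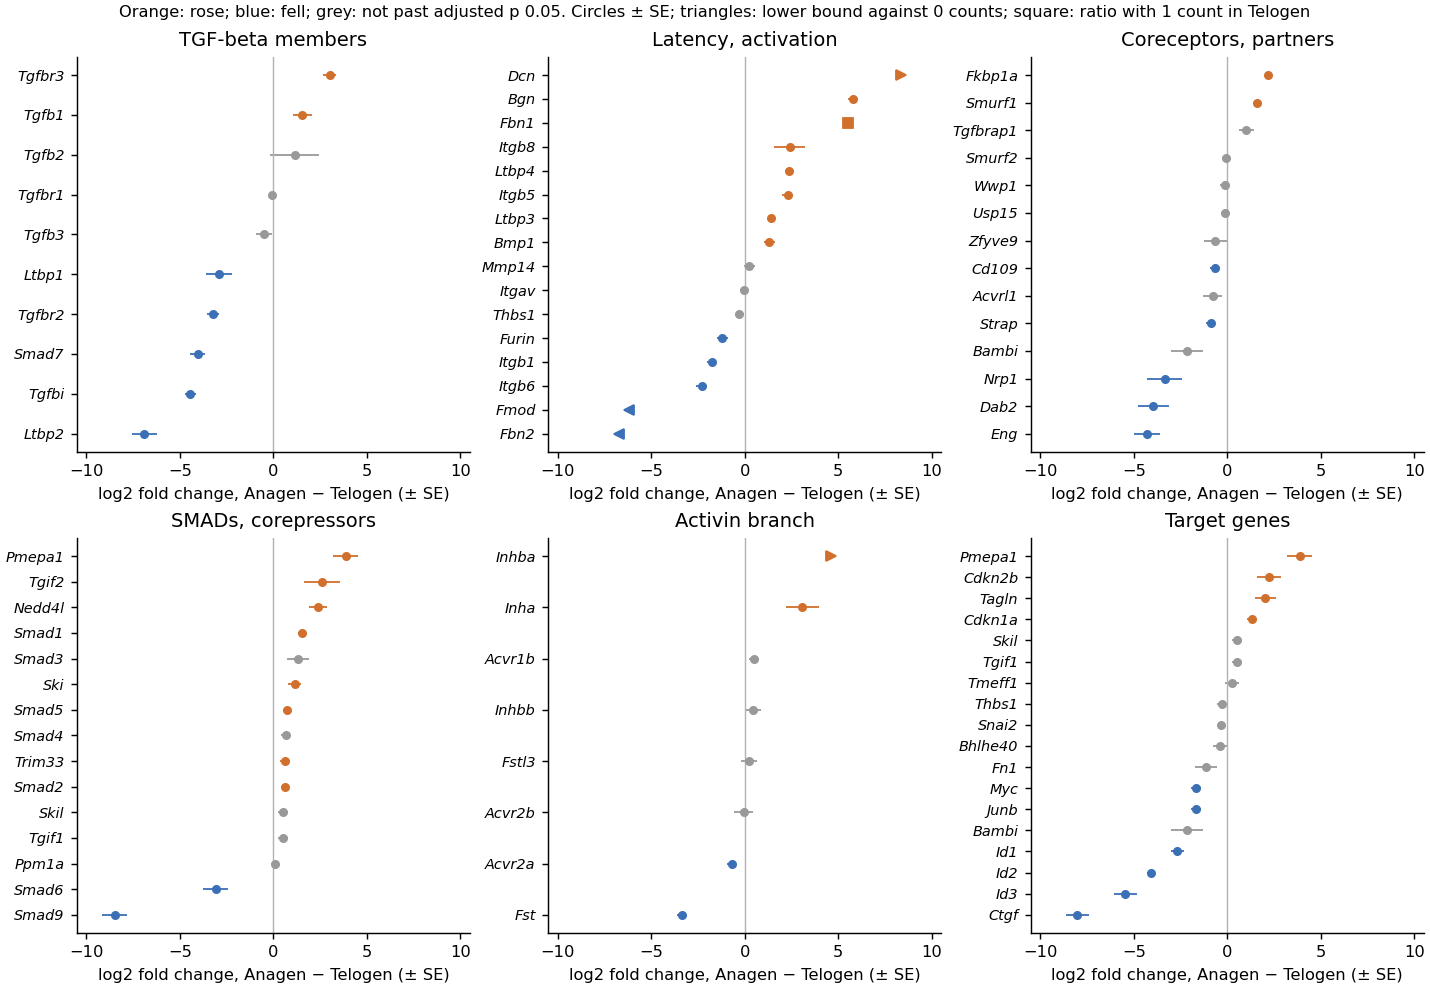
Log2 fold change (Anagen minus Telogen) of the members and of the tested genes of each pathway list, with bars of ± 1 SE, colored by whether the gene rose, fell or did not pass the test. Triangles are bounds for genes with no count in one group, and the square is the ratio of a gene with 1 count in Telogen. Each list holds genes on both sides of 0.

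Genes of latency and activation moved both ways. Of 20 listed genes 16 were tested, and 8 rose, 5 fell and 3 did not pass; the median log2 fold change was 0.78. Among the integrin chains that free latent TGF-beta, Itgb6, the epithelial partner of alpha-v, fell from 116.5 ± 18.8 to 23.6 ± 8.70 CPM (4.93-fold lower, edgeR adjusted p = 0.000110), without overlap. Itgb5, another alpha-v partner, rose from 9.30 ± 1.49 to 45.8 ± 7.48 CPM (4.92-fold, edgeR adjusted p = 8.13e-05). Itgb8, which frees latent TGF-beta as a further alpha-v partner, rose from 6.17 ± 6.14 to 32.5 ± 9.34 CPM (edgeR adjusted p = 0.0319), a call lost in 8 of 14 alternative settings, among them DESeq2 (adjusted p = 0.108), no filter, and the fits without Telogen 1, Anagen 1, Anagen 2 or Anagen 4. The alpha-v chain itself, Itgav, was at 244.5 ± 39.0 and 235.2 ± 8.90 CPM and did not pass (edgeR adjusted p = 0.808, log2 interval -0.44 to 0.33). Itgb3 had 10 counts in a single library and was not tested.

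Itgb1, the common beta chain of matrix receptors, fell 3.42-fold (edgeR adjusted p = 0.000151). Furin, the protease that cleaves the TGF-beta precursor, fell 2.29-fold (edgeR adjusted p = 0.00677). Bgn, a matrix proteoglycan that binds TGF-beta, rose from 4.14 ± 0.892 to 229.6 ± 22.7 CPM (55.3-fold, edgeR adjusted p = 1.57e-07). Bgn is also made by fibroblasts, and the part of fibroblast RNA in its Anagen values of 228, 243.4, 198.1 and 248.7 CPM was not tested. With Anagen 1 and Anagen 2 left out, the list had 6 genes that rose and 6 that fell of 15 tested.

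Among coreceptors and receptor partners, 14 genes were tested: 2 rose, 5 fell and 7 did not pass, and the median log2 fold change was -0.64. Fkbp1a, which binds the type I receptor and holds it inactive, rose 4.61-fold, from 100.6 ± 18.4 to 463.9 ± 70.3 CPM (edgeR adjusted p = 1.58e-05). Its reads may be shared with processed pseudogenes, so this value is uncertain. Smurf1, a ubiquitin ligase that works with Smad7 to remove the receptor, rose 3.07-fold, from 17.2 ± 0.407 to 52.7 ± 7.24 CPM (edgeR adjusted p = 0.000321). Dab2, an adaptor that links the receptors to SMADs, fell from 68.4 ± 23.1 to 4.42 ± 3.35 CPM (15.5-fold lower, edgeR adjusted p = 0.00295). Its fall was 29.6-fold without Anagen 1 and Anagen 2. Strap, a receptor-binding protein that works with Smad7, fell 1.84-fold (edgeR adjusted p = 0.0129), and that call was lost without Anagen 1 and Anagen 2. Cd109, a coreceptor that restrains TGF-beta signalling in keratinocytes, passed at 1.57-fold lower (edgeR adjusted p = 0.0478) with overlapping groups, and lost its call in 9 of 14 alternative settings, among them upper-quartile factors and each library left out other than Telogen 3.

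Among the SMAD genes, both inhibitory members were lower in Anagen. Of 15 tested SMAD and corepressor genes, 8 rose, 2 fell and 5 did not pass (median log2 fold change 0.65). Of the SMADs that TGF-beta receptors use, Smad2 rose from 188.7 ± 26.3 to 287 ± 26.2 CPM (edgeR adjusted p = 0.0162), a call lost in 5 alternative settings: without Telogen 1, without Anagen 1, without Anagen 1 and Anagen 2, with the replicate number as a block, and with offsets for GC and length (log2 fold change 0.26). Smad3 stood at 6.08 ± 4.76 and 15.4 ± 2.36 CPM (edgeR adjusted p = 0.0789), and it passed without Telogen 2 (adjusted p = 0.0330). Smad4, the shared partner, stood at 67.4 ± 20.4 and 106.1 ± 18.4 CPM, at the threshold (edgeR adjusted p = 0.05001), and passed without Telogen 2 (adjusted p = 0.0157).

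Of the SMADs of the BMP branch, Smad1 rose 2.85-fold (edgeR adjusted p = 0.000196) while Smad9 fell from 45.1 ± 4.68 to 0.118 ± 0.1699 CPM. Smad9 had 256, 310 and 203 counts in Telogen and 5, 2, 0 and 0 counts in Anagen (fitted 359-fold lower, edgeR adjusted p = 4.16e-06, 854-fold without Anagen 1). Smad6, the second inhibitory SMAD and the one tied to BMP signals, fell 8.54-fold, from 21.4 ± 5.74 to 2.49 ± 1.86 CPM (edgeR adjusted p = 0.00323). Both inhibitory SMADs thus passed in the same direction.

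Pmepa1, Nedd4l and Ski, which also restrain SMAD signalling, rose. Pmepa1, a TGF-beta-induced protein that sequesters SMAD2 and SMAD3, stood at 2.67, 17.7 and 2.18 CPM in Telogen and at 90.8, 171.7, 76.0 and 110.9 CPM in Anagen. All Anagen values were above all Telogen values, and the rise was 14.7-fold (edgeR adjusted p = 0.000837), or 46.2-fold without Telogen 2. Nedd4l, a ubiquitin ligase for activated SMAD2 and SMAD3, rose 5.26-fold (edgeR adjusted p = 0.00158), or 8.84-fold without Telogen 1. Ski, a SMAD corepressor, rose 2.21-fold (edgeR adjusted p = 0.0150), a call lost without Telogen 3 and under the offsets for GC and length. Leaving out Anagen 1 and Anagen 2, 4 genes of the list rose and 2 fell.

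In the activin branch, which shares SMAD2 and SMAD3, 8 genes were tested, and 2 rose, 2 fell and 4 did not pass (median log2 fold change 0.35). Fst, which binds and neutralises activin, fell 10.4-fold, from 668 ± 135.6 to 64.4 ± 12.7 CPM (edgeR adjusted p = 1.56e-06). Inhba, the activin subunit, had 0 counts in Telogen and 125, 109, 6 and 25 counts in Anagen, at least 24.3-fold higher by the same floor (edgeR adjusted p = 0.00744). As with Tgfb2, its highest values were those of Anagen 1 and Anagen 2. Inha rose 8.44-fold from 0.620 to 5.21 CPM (edgeR adjusted p = 0.0140), or 13.8-fold without Telogen 1, and its call was lost without Anagen 1 and Anagen 2. Acvr2a, an activin type II receptor, passed at 1.62-fold lower (edgeR adjusted p = 0.0325) with overlapping groups, a call lost in 8 of 14 alternative settings, among them upper-quartile factors and the fits without Telogen 2, Telogen 3, Anagen 1, Anagen 2 or Anagen 3. With Anagen 1 and Anagen 2 left out, 7 genes were tested, Inhba was no longer among them and Fst alone of the 4 called genes held its call.

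Genes known to respond to TGF-beta in other cells did not move as a block. Of 18 tested, 4 rose, 6 fell and 8 did not pass, and the median log2 fold change was -0.35. The list holds genes that TGF-beta induces and genes that it represses. Ctgf, a matricellular protein and a widely used TGF-beta response gene that is also a YAP target, stood at 4498, 2876 and 2698 CPM in Telogen and at 20.5, 20.6, 6.70 and 3.86 CPM in Anagen. It was at the 99.8 percentile of mean RPKM in Telogen and 259-fold lower in Anagen (log2 fold change -8.02 ± 0.61 SE, edgeR adjusted p = 3.73e-06). It was 632-fold lower without Anagen 1 and Anagen 2.

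The inhibitors of differentiation, targets of BMP and TGF-beta signals, fell together. Id2 fell 16.7-fold, from 3649 ± 650 to 219 ± 37.2 CPM (edgeR adjusted p = 3.71e-07). Id3 fell 43.7-fold, from 173.7 ± 22.2 to 3.92 ± 3.42 CPM (edgeR adjusted p = 4.34e-05), or 72.6-fold without Anagen 2. Id1 fell 6.42-fold (edgeR adjusted p = 0.000133). Junb, an AP-1 subunit, fell 3.21-fold (edgeR adjusted p = 0.000680) and Myc, a growth regulator that TGF-beta is known to repress, 3.15-fold (edgeR adjusted p = 0.000643).

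The 4 target genes that rose were Pmepa1, Cdkn1a, Cdkn2b and Tagln. The cell cycle inhibitors Cdkn1a and Cdkn2b rose 2.48-fold, from 93.7 ± 33.3 to 232.8 ± 43.5 CPM, and 4.73-fold, from 1.00 to 4.78 CPM (edgeR adjusted p = 0.00244 and 0.0145). Tagln, an actin-binding protein of smooth muscle and activated fibroblasts, rose 4.12-fold, from 1.87 to 7.70 CPM (edgeR adjusted p = 0.01196). The calls of Cdkn2b and Tagln were lost without Anagen 1 and Anagen 2. The matrix protein Fn1 stood at 43.98, 54.2 and 38.8 CPM in Telogen and 38.7, 32.5, 5.22 and 8.01 CPM in Anagen (edgeR adjusted p = 0.138), and without Anagen 1 and Anagen 2 it passed as a 6.90-fold fall. The other genes of the list that did not pass were Skil, Tgif1, Tmeff1, Thbs1, Snai2, Bhlhe40 and Bambi. Their log2 fold changes ran from -2.16 (Bambi) to 0.52 (Skil). Thbs1 and Bambi passed as falls without Anagen 1 and Anagen 2, and Skil as a rise without Telogen 2. Fn1 and Thbs1 also passed as falls with offsets for GC content and length. Bambi also passed as a fall with DESeq2 and without Anagen 1 alone. Tgif1 passed as a rise without Telogen 3 and with the offsets. Without Anagen 1 and Anagen 2, 2 genes of the list rose and 9 fell. Offsets for GC content and length, which moved several named genes by over 1.5 times without ending their calls, gave a 3.86-fold fall of Furin, rises of 1.87-fold for Smurf1, 9.69-fold for Pmepa1 and 3.26-fold for Nedd4l, and falls of 8.42-fold for Id2 and 4.13-fold for Id1.

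**Figure D4:**
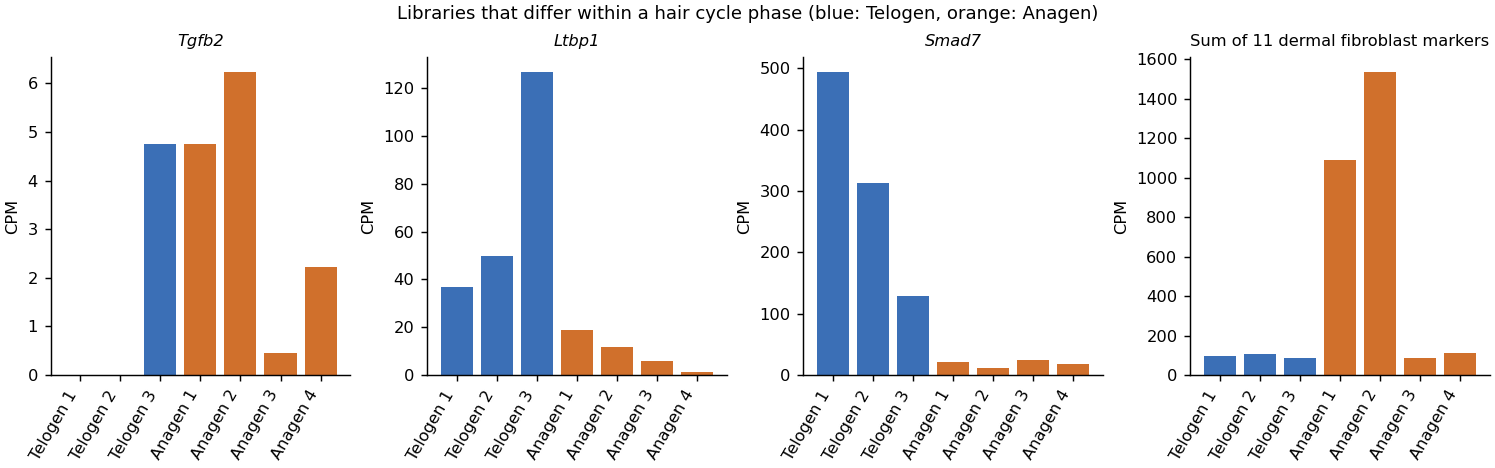
Level in CPM of Tgfb2, Ltbp1 and Smad7 and of the summed dermal fibroblast markers, as 1 bar per library. Anagen 1 and Anagen 2 hold 1089 and 1533 CPM of fibroblast markers and more Tgfb2 and Ltbp1 than Anagen 3 and Anagen 4, and Telogen 3 has the Tgfb2 reads of its group, its highest Ltbp1 and its lowest Smad7.

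Values of Tgfb2, Ltbp1 and Tgfbi were higher in Anagen 1 and Anagen 2 than in the other Anagen libraries, together with the summed fibroblast markers. So were Lgr5 (82.7 and 82.2 against 24.9 and 34.9 CPM), Krt14, Krt15, Cd34, Itgb4 and Nfatc1 of the stem cell and basal keratinocyte markers. Krt5, Itga6, Sox9, Lhx2 and Tcf7l1 of that list were not. The part of fibroblast or stem cell RNA in the values of Tgfb2, Ltbp1 and Tgfbi was not tested. With Anagen 1 and Anagen 2 left out, the calls of Tgfbr2, Tgfbr3, Ltbp1, Ltbp2, Tgfbi and Smad7 held, at log2 fold changes of -3.19, 3.06, -4.30, -6.87, -5.03 and -3.88. These 6 members were also called in 14 of 14 alternative settings, while Tgfb1 was called in 7 of 14.

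**Figure D5:**
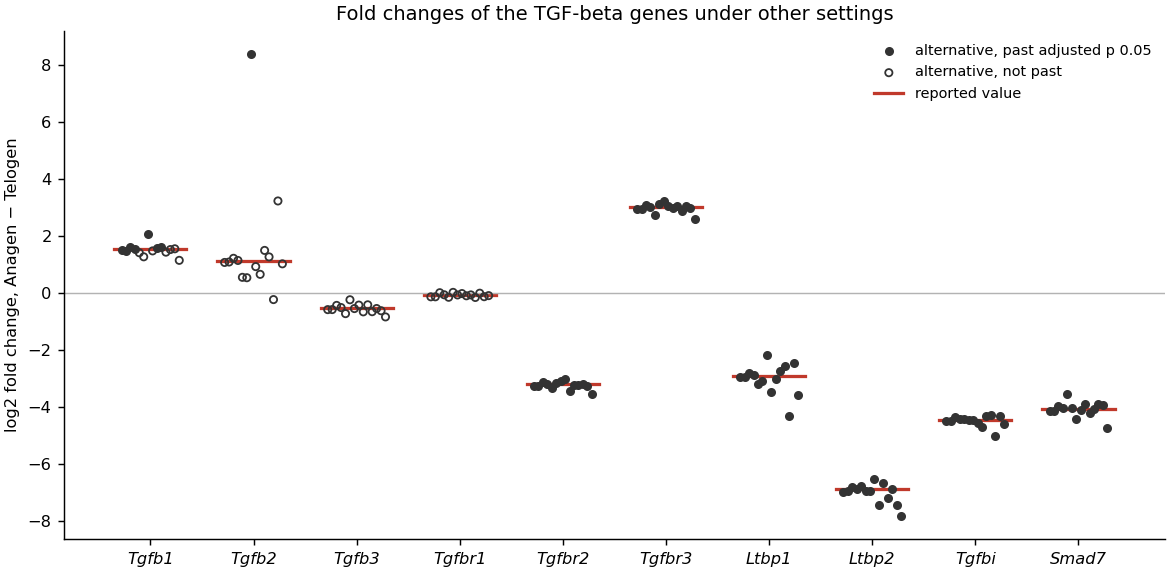
Log2 fold change (Anagen minus Telogen) of each member in the reported fit and in the 14 alternative settings, with a line at the reported value and filled points where the gene passed the test. The points of Tgfb2 run from -0.22 to 8.39, those of Tgfbr2 from -3.55 to -3.01.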

How the data were processed

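RNA-seq of 7 samples of sorted Lgr5-positive cells was analysed from 1 deposited table. Per the labels' protocols, skin cells were freed with trypsin, RNA was extracted in Trizol, and libraries came from the Ovation RNA-Seq System V2 kit. Reads were placed on mm10, the build that the submitters' processing notes name. The aligner, counter and strand setting were not given in the sources used here. Per the file headers, the authors deposited raw counts and RPKM of each gene in each sample. The deposited RPKM equalled count over gene length and total in 107905 of 107905 values (relative tolerance 1e-06). Starts are given here 1-based. The table has 1 value per gene, so isoforms were not separated.

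Samples were grouped by their titles. The counts were tested with edgeR 4.0.16 (R 4.3.3, quasi-likelihood test, robust fit) with TMM factors on the 12266 genes that passed its expression filter, set to a minimum count of 10 and a minimum total of 15. P-values were two-sided, with Benjamini-Hochberg adjustment and a threshold of 0.05. Standard errors are the log2 fold change over the square root of F. CPM use the TMM-scaled totals. Exact permutation tests used log2 CPM with a prior count of 2 and scipy 1.17.1. Intervals and floors cover counting error or the fit only. GC content was found for 99.4% of genes in GENCODE transcripts. The fit was tested on simulated data.

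The members and the gene lists were chosen with earlier results of these data known. Besides the members, up to 4 genes per list and direction were named: those past the threshold with the smallest adjusted p and above the median expression, or up to 2 where none reached that median. Integrins, Smad2, Smad3, Smad4 and the target genes could be named in any case. Alternatives were DESeq2 1.42.0, RLE and upper-quartile factors, no filter, a fold of 2 besides the adjusted p, each library left out, Anagen 1 and Anagen 2 left out, a replicate block and, added after seeing the data, offsets for GC content and length. Promoter windows began before the earliest annotated start, and sequences were taken from RefSeq tables.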

Additional observations from a re-analysis of the deposited data

Results flagged for a closer look

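The share of Tgfb3 in the summed ligand RPKM was 19.8% in Anagen 1, below the 28.7% to 30.4% of the other 3 Anagen libraries. Its gap to the nearest of them was 0.838 of the whole Anagen range, above Dixon's 95% critical value for 4 samples. In all, 26 groups of 4 Anagen values were examined this way, and chance alone flags about 1 in 20.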

How the results depend on the processing

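Of 150 values of the 10 members under the alternatives, a threshold that also asks for a fold of 2 included, 139 kept their direction and their side of the threshold. The changes lay in Tgfb1, Tgfb2 and Tgfbr1. The log2 fold change of Tgfb1 fell short of the threshold at 1.53 without Anagen 1 and Anagen 2 (edgeR adjusted p = 0.122), at 1.56 with the replicate block (0.0822) and at 1.15 with offsets for GC content and length (0.0871), and in each of these fits 1 member rose in place of 2. With single libraries left out it ranged from 1.28 to 2.07, and 1 to 3 members rose, 3 without Telogen 3, where Tgfb2 also passed. The cause was not tested. Tgfb2 ranged from 0.54 to 8.39 with single libraries left out, where 8.39 comes from the 0 counts left in Telogen without Telogen 3, and was -0.22 without Anagen 1 and Anagen 2. Tgfbr1 ranged from -0.15 to 0.0289 with single libraries left out and was 0.0170 with upper-quartile factors. Of the other pathway genes 20 rose, 13 to 24 with single libraries left out, and 12 without Anagen 1 and Anagen 2; of the target genes 2 rose without these libraries, in place of 4. Samples of the same number had correlations of their deviations of 0.004, 0.079 and -0.045, and pairs of other numbers ran from -0.112 to 0.102. Not every sample correlated best with its own number. Deviations from means of only 3 or 4 libraries cannot decide if the numbers pair the samples. The replicate block called 2497 genes up and 2289 down, against 3170 and 2902, and ended no member's call other than that of Tgfb1. Without a filter the median log2 fold change of all genes was 0.22 in place of 0.09, a shift of 0.13. Depth limits Tgfb1 and Tgfb2 most, with 40 and 24 counts in all over the Telogen libraries.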
